A study of Mus musculus with 6 samples.

Results

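The Notch pathway genes *Notch1*, *Notch3*, *Rbpj*, *Hes1*, *Heyl*, *Dtx1* and *Nrarp* and the pre-TCR alpha gene *Ptcra* were followed in double-positive (DP) thymocytes, the CD4+CD8+ stage of T cell development in the thymus. These 8 genes are active before and at the entry into the DP stage and were picked by symbol from the 23183 gene symbols of the files. In NSrp70-cKO DP thymocytes the receptors *Notch1* and *Notch3* and the targets *Dtx1* and *Hes1* were lower than in WT, *Rbpj* was slightly higher, and *Nrarp* and *Ptcra* did not pass the test. *Heyl* was too low to be tested.

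Sorted DP thymocytes of C57BL/6 mice aged 6 weeks were sequenced in 3 libraries per genotype. Both groups carried floxed alleles of *Nsrp1*, which encodes the splicing factor NSrp70. WT mice were *Nsrp1* f/f without Cre, and NSrp70-cKO (cKO) mice were *Nsrp1* f/f CD4Cre, in which the enhancer and promoter of the *Cd4* gene drive Cre from the late double-negative (DN) stage on. The values were FPKM (fragments scaled to transcript length and to the number of mapped fragments), a level per transcript length that can be compared between genes. The sources used here do not say whether the 3 libraries of a group came from separate mice, so p-values measure the spread between libraries, which may be technical.

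Notch receptors are cut after they bind a ligand on a neighbouring cell, and the released intracellular domain enters the nucleus and joins the DNA-binding protein RBPJ and Mastermind coactivators to switch on targets such as *Hes1*, *Dtx1*, *Nrarp* and *Heyl*. In the thymus this signal, given by Delta-like ligand on epithelial cells, commits progenitors to the T lineage and carries DN cells through beta selection. *Ptcra* encodes the invariant chain that pairs with a new TCR beta chain to form the pre-TCR, and it is itself a known Notch target. Notch signalling and the pre-TCR are normally switched down once cells have become DP.

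The targeted gene, listed under its older symbol *Ccdc55*, stood at 20.2, 20.7 and 21.1 FPKM in WT and at 17.7, 15.8 and 15.0 FPKM in cKO libraries. All cKO libraries were below all WT libraries, by 21.8% in the mean (log2 fold change -0.34 ± 0.077 SE, limma adjusted p = 0.00675). A gene-level FPKM does not tell transcripts with the floxed part from those without it. The call was lost when the WT libraries were counted as 1 sample (adjusted p = 0.184). That alternative was run because the WT libraries differed from each other by little more than counting noise (chi-square per gene 1.56 to 1.70, against 31.9 to 66.2 between cKO libraries). It leaves WT as an arm of 1 value, so that the spread comes from the cKO libraries alone and the lone WT value is assumed to vary like them. Estimated depth was 20.7 to 20.8 M fragments in WT and 13.1 to 20.6 M in cKO libraries. *Xist*, the RNA of the inactive X chromosome, was at 71.1, 69.8 and 72.0 FPKM in WT and 4.07 to 5.44 FPKM in cKO, and 4 genes of the Y chromosome were listed at 0 in every WT and present in every cKO library, so that sex and genotype cannot be told apart in any comparison here.

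The DP label held in both groups. *Cd4*, *Cd8a*, *Cd8b1* and *Rag1* were between 486 and 2603 FPKM in each library, and the 8 DP markers summed to 4174 to 4212 FPKM in WT and 5371 to 6908 FPKM in cKO. Markers of early DN cells, in which Notch and the pre-TCR act, summed to 6.86 to 7.23 FPKM in WT and 3.78 to 5.22 FPKM in cKO, and 7 of these 8 genes, *Kit* among them, were below the expression filter.

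The promoter windows of 6 of the 8 genes were read from RefSeq (GRCm38.p6), each the 250 bases before a transcription start, 5′ to 3′ on the strand of the gene. They were searched on both strands for TGGGAA, the core letters bound by RBPJ, for its longer form GTGGGAA, and for CACNAG, the N box bound by Hes factors. The windows of *Ptcra* and *Rbpj* are shown because they held TGGGAA, and those of *Notch1*, *Notch3* and *Dtx1* because these genes fell furthest. Capitals mark TGGGAA or its reverse complement in the first 2 sequences and CACNAG or its reverse complement in the others.
Ptcra: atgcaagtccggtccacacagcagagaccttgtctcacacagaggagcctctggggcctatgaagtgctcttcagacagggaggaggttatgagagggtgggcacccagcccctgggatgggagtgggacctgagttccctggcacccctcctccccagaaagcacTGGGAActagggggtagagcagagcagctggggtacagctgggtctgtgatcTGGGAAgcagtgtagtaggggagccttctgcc
Rbpj: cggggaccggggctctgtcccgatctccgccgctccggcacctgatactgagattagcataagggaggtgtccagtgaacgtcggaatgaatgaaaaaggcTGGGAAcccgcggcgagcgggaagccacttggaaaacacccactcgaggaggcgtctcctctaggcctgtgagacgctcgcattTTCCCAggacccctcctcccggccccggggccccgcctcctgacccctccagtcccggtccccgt
Notch1: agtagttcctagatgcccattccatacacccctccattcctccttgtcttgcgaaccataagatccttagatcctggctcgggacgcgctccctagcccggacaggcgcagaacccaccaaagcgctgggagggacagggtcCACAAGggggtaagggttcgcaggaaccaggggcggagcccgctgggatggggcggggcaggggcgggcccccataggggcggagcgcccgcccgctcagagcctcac
Notch3: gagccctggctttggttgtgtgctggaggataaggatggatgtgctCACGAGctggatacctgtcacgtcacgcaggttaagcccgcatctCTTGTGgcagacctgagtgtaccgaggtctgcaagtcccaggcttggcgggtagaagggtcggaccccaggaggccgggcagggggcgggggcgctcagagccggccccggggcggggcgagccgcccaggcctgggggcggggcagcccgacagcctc
Dtx1: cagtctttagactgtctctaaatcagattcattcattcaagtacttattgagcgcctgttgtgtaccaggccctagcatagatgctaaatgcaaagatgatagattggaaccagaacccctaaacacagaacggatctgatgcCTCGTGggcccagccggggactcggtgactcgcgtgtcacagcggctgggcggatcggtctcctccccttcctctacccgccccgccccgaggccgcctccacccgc

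The *Ptcra* window (chr17:46763713-46763962, minus strand) held TGGGAA 84 and 32 bases before the start. The *Rbpj* window (chr5:53590096-53590345, plus strand) held it at 149 and 65 bases, and a second start of *Rbpj* held the same place as the match at 65 bases. None was found in the windows of *Notch1* (chr2:26503823-26504072, minus strand), *Notch3* (chr17:32166891-32167140, minus strand), *Dtx1* (chr5:120711670-120711919, minus strand) or *Nrarp*. The windows of *Notch1*, *Rbpj* and *Dtx1* lie inside the gene spans given below. Sequence before the 5′ ends of those spans was not searched. Of 32851 RefSeq windows of the same length, 21.6% held TGGGAA. The longer GTGGGAA was in none of the 6 genes and in 5.42% of all windows. CACNAG, present in 36.7% of all windows, was found once each in *Notch1* and *Dtx1*, 2 times each in *Notch3* and *Nrarp*, and not in *Ptcra* or *Rbpj*. A match describes letters in these windows and was not tested as a binding site.

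Of the 7 genes that passed the filter (1 FPKM or more in at least 3 of 6 libraries), 4 were lower and 1 was higher in cKO at an adjusted p of 0.05 by limma on log2(FPKM + 1). Over all 10326 genes tested, 65.5% were called, 29.8% as lower and 35.8% as higher, so that a call by itself was the usual outcome, and size is given beside each one. In the 4 lower genes all cKO libraries were below all WT libraries, as in 33.3% of all tested genes, and in the higher one all were above, as in 39.2%. Only 4.71% of all genes were called and lower by at least 1 on the log2 scale, which included *Notch3* and *Dtx1*, with *Notch1* just short of it. The median log2 fold change was -0.52 for the 7 genes and 0.039 for all genes. Fold changes on the log2(FPKM + 1) scale understate the change of low genes. In bulk RNA, fewer cells that express a gene and less of its RNA per cell cannot be told apart.

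**Figure D1:**
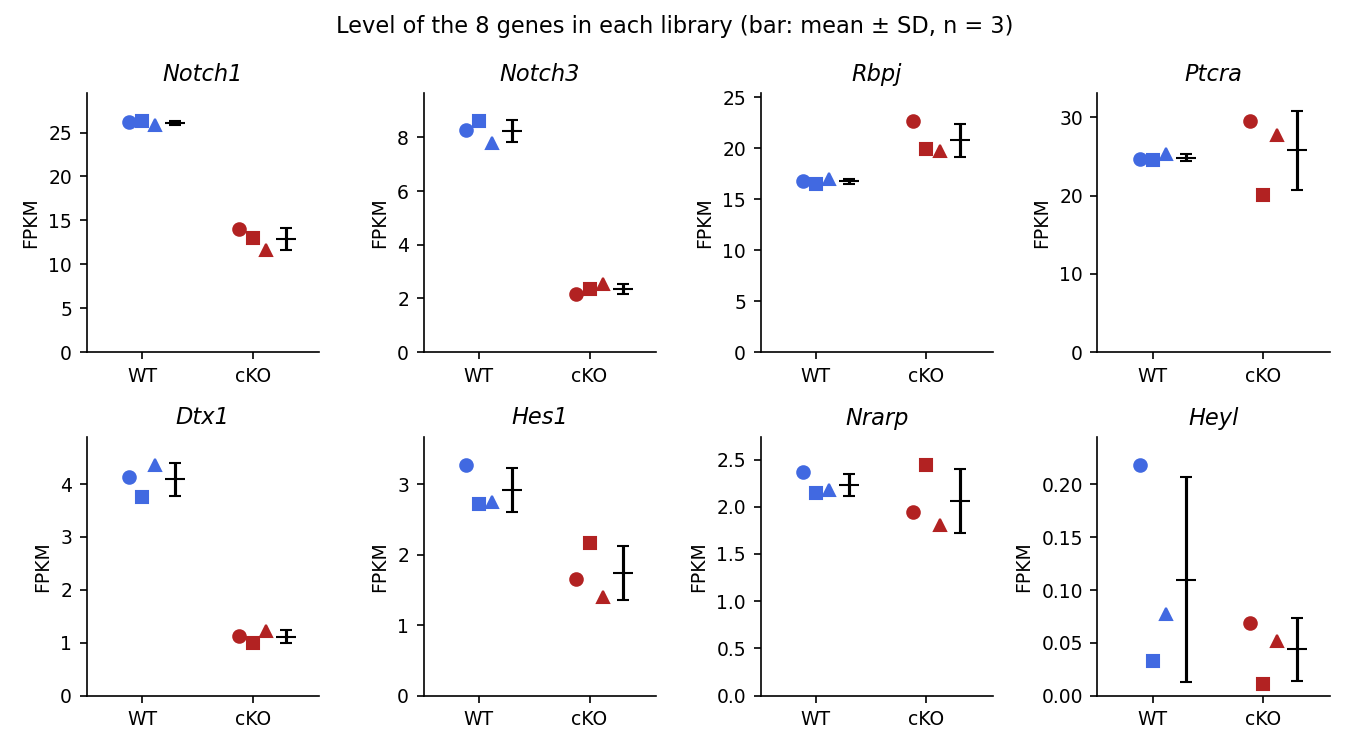
FPKM (linear axis from 0) of the 8 genes in each WT (blue) and cKO (red) library, where the circle, square and triangle are replicates 1, 2 and 3 and the bar is the mean ± SD (n = 3). *Notch1*, *Notch3*, *Dtx1* and *Hes1* lay lower in every cKO than in every WT library, *Rbpj* lay higher, and *Nrarp*, *Ptcra* and *Heyl* overlapped.

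*Notch1* (chr2:26457903-26516663, minus strand, GRCm38) encodes the receptor that drives T lineage commitment. It stood at 26.2, 26.3 and 25.8 FPKM in WT and at 14.1, 13.0 and 11.6 FPKM in cKO libraries. The WT values were nearly equal, and the highest cKO value was far below them. The mean fell from 26.1 ± 0.254 to 12.9 ± 1.21 FPKM (SD, n = 3 each), 50.6% lower, with a log2 fold change of -0.97 ± 0.079 SE (limma adjusted p = 0.000159). Of all tested genes, 5.08% had a lower fold change. About 1712 to 5066 fragments per library lay behind these values.

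*Notch3* (chr17:32120820-32166852, minus strand) encodes a second receptor, which is prominent on DN thymocytes and falls towards the DP stage. It was at 8.28, 8.61 and 7.80 FPKM in WT and at 2.16, 2.36 and 2.55 FPKM in cKO libraries. The groups were well apart and each was narrow. *Notch3* was 71.4% lower in the mean (8.23 ± 0.406 against 2.36 ± 0.193 FPKM, SD, n = 3 each), with a log2 fold change of -1.46 ± 0.078 SE (limma adjusted p = 8.19e-05), and 0.959% of all tested genes had a lower one.

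Within a library, *Notch1* was 3.17, 3.05 and 3.31 times *Notch3* in WT and 6.51, 5.50 and 4.57 times *Notch3* in cKO. This ratio does not depend on a factor per library, and it was higher in every cKO than in every WT library, by 0.75 on the log2 scale. The exact two-sided permutation test gave p = 0.1, the smallest that 3 against 3 libraries allow, and 0.133 after adjustment over the 4 ratios compared. With a pseudocount of 1 the difference was 0.49. When GC content and length were corrected for, the fold changes of the receptors lay closer together, at -1.03 for *Notch1* and -1.17 for *Notch3*, so that unequal falls of the 2 receptors were not established.

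*Rbpj* (chr5:53466152-53657362, plus strand), the DNA-binding partner of all Notch receptors, was at 16.8, 16.5 and 17.0 FPKM in WT and at 22.6, 19.9 and 19.7 FPKM in cKO libraries. Every cKO value was above every WT value, in a direction opposite to the receptors. The log2 fold change was 0.29 ± 0.074 SE (limma adjusted p = 0.0116), and 65.9% of all tested genes had a lower one, so *Rbpj* lay inside the bulk of the genes. This was the least stable of the 5 calls, since the adjusted p was 0.0529 without WT replicate 2, 0.242 with WT counted as 1 sample (log2 fold change still 0.29) and 0.0729 when GC content and length were corrected for (0.21), and the direction turned to -0.24 (adjusted p = 0.0601) when libraries were scaled to the same FPKM total.

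**Figure D2:**
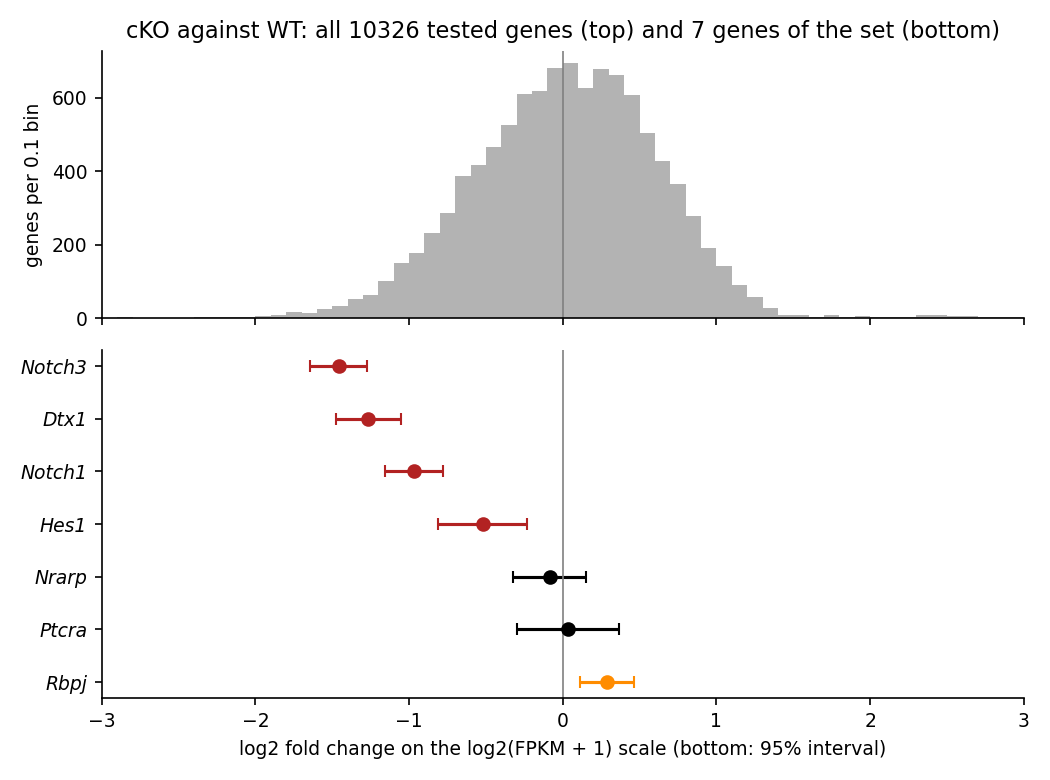
Log2 fold change of cKO against WT, as a histogram of all 10326 tested genes (top, number of genes in bins of 0.1) and with 95% intervals for the 7 tested genes of the set (bottom, red for lower, orange for higher, black for not called). *Notch3* at -1.46, *Dtx1* at -1.26 and *Notch1* at -0.97 lay in the left tail of the histogram, and *Nrarp*, *Ptcra* and *Rbpj* lay under its centre.

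*Dtx1* (chr5:120680202-120711927, minus strand) encodes Deltex 1, a ubiquitin ligase that is switched on by Notch and acts on the receptor. It was at 4.13, 3.76 and 4.37 FPKM in WT and at 1.13, 0.988 and 1.22 FPKM in cKO libraries. Only about 56.8 to 81.0 fragments lay behind each cKO value, against 298.2 to 347.5 in WT. The groups did not overlap and the mean was 72.7% lower in cKO, with a log2 fold change of -1.26 ± 0.090 SE (limma adjusted p = 0.000114). Only 1.89% of all tested genes had a lower value. Relative to *Notch1*, *Dtx1* stood at 0.158, 0.143 and 0.169 times its level in WT and at 0.0804, 0.0761 and 0.105 times in cKO libraries. All cKO ratios were below all WT ratios, by 0.77 on the log2 scale in the mean (exact two-sided permutation p = 0.1, adjusted 0.133). With a pseudocount of 1 the difference was -0.30 (exact two-sided permutation p = 0.2), and when GC content and length were corrected for, *Dtx1* had -0.84 and *Notch1* -1.03, the opposite order. A fall of *Dtx1* beyond that of *Notch1* was therefore not established.

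*Hes1* (chr16:30064384-30067796, plus strand) encodes the repressor through which Notch silences other lineages' genes. Its values were 3.28, 2.73 and 2.75 FPKM in WT and 1.66, 2.16 and 1.40 FPKM in cKO libraries. The cKO libraries lay below the WT libraries without overlap, by 40.3% in the mean, and only about 27.6 to 86.5 fragments per library lay behind each value. The log2 fold change was -0.52 ± 0.12 SE (limma adjusted p = 0.00763), and 18.3% of all tested genes had a lower one. Against WT as 1 sample the fold change was again -0.52, with an adjusted p of 0.123. Relative to *Notch1*, *Hes1* stood at 0.125, 0.104 and 0.107 in WT and at 0.118, 0.167 and 0.120 in cKO libraries. These ratios overlapped (log2 difference 0.29, exact two-sided permutation p = 0.3). With a pseudocount of 1 the difference was 0.45 (exact two-sided permutation p = 0.1, the smallest possible). A fall of *Hes1* beyond or short of that of *Notch1* was therefore not established.

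*Nrarp* (chr2:25180758-25183339, plus strand) encodes a small ankyrin-repeat protein that Notch induces and that dampens the Notch complex. It was at 2.37, 2.15 and 2.18 FPKM in WT and at 1.94, 2.45 and 1.80 FPKM in cKO libraries. The highest of the 6 values was a cKO library, and the groups overlapped. The log2 fold change was -0.084 (95% interval -0.32 to 0.15, limma adjusted p = 0.485), an interval that leaves out a fall as large as that of *Dtx1* or *Notch3*. Scaling to the same FPKM total made it a call (-0.46, adjusted p = 0.0153), close to the median of all genes under that scaling, which was -0.45.

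*Heyl* (chr4:123233556-123249875, plus strand), a Hes-related repressor, was close to absent. It was at 0.219, 0.0331 and 0.0771 FPKM in WT and at 0.0691, 0.0109 and 0.0521 FPKM in cKO libraries, or about 1.0 to 19.7 fragments. The groups overlapped, and no test was made in the main fit because the gene stayed below 1 FPKM in all 6 libraries. Fitted without a filter, it had a log2 fold change of -0.084 with a pseudocount of 1 (limma adjusted p = 0.350) and of -0.46 with a pseudocount of 0.1 (95% interval -1.30 to 0.37, adjusted p = 0.339).

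*Ptcra* (chr17:46755663-46763712, minus strand) was at 24.6, 24.5 and 25.4 FPKM in WT and at 29.5, 20.1 and 27.8 FPKM in cKO libraries. The WT values lay inside the range of the cKO values. The mean was 24.8 ± 0.470 in WT and 25.8 ± 5.02 FPKM in cKO (SD, n = 3 each), with a log2 fold change of 0.032 (95% interval -0.30 to 0.36, limma adjusted p = 0.851). That interval leaves out a fall like the one of *Notch1*, *Notch3* or *Dtx1*, but it does not show that *Ptcra* was equal in both groups. The result turned on 1 library, with a log2 fold change of 0.21 (adjusted p = 0.00978) without cKO replicate 2. At the same FPKM total it was -0.51 (adjusted p = 0.0034), close to the median of all genes under that scaling (-0.45). Beside *Cd3e*, a signalling chain of both the pre-TCR and the mature receptor, *Ptcra* was at 0.0418, 0.0420 and 0.0431 times its level in WT and at 0.0514, 0.0438 and 0.0512 times in cKO libraries. All cKO values were above all WT values, by 0.20 on the log2 scale (exact two-sided permutation p = 0.1, adjusted 0.133). This order depends on *Cd3e* as the reference, which was not called (-0.17). The CD3 chain genes *Cd3d* (0.78), *Cd3g* (0.49) and *Cd247* (0.50) were called higher in cKO and rose more than *Ptcra*. Ratios of *Ptcra* to them were not tested.

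**Figure D3:**
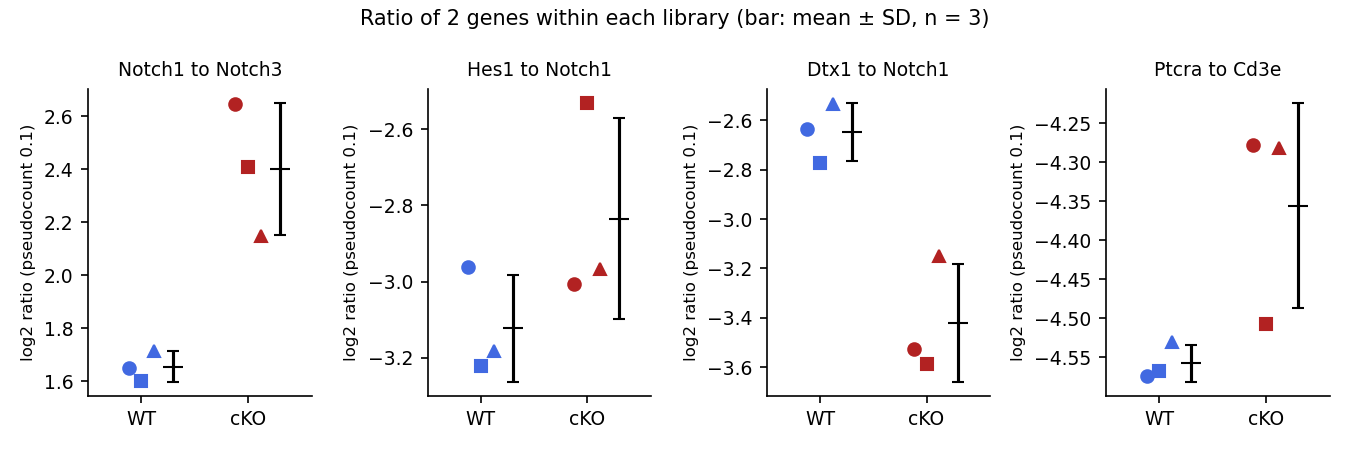
Log2 ratio of 2 genes within each library (pseudocount 0.1 FPKM) for WT (blue) and cKO (red), with the mean ± SD (n = 3). The ratio of *Notch1* to *Notch3* and of *Ptcra* to *Cd3e* lay higher, and that of *Dtx1* to *Notch1* lower, in every cKO than in every WT library, and that of *Hes1* to *Notch1* overlapped.

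By level, the order in WT was *Notch1*, *Ptcra*, *Rbpj*, *Notch3*, *Dtx1*, *Hes1*, *Nrarp* and *Heyl*, from a mean of 26.1 to 0.110 FPKM, and no 2 neighbours had overlapping values over the 3 libraries. In cKO the order was *Ptcra*, *Rbpj*, *Notch1*, *Notch3*, *Nrarp*, *Hes1*, *Dtx1* and *Heyl*, from 25.8 to 0.0440 FPKM. There the values of *Ptcra* and *Rbpj*, of *Notch3* and *Nrarp*, and of *Nrarp* and *Hes1* overlapped. *Notch1* thus went from the first place to below *Rbpj*, its DNA-binding partner, and *Dtx1* from above to below *Nrarp*. *Notch1* was above 57.0% of all tested genes by its mean over the 6 libraries, *Notch3* above 21.5% and *Dtx1* above 10.5%.

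The genes most like each of 3 members over the 6 libraries were found by Pearson correlation of log2(FPKM + 1), a description in which the libraries share their genotype. They were *Kdm6b*, *Plekhg2* and *Gltscr1* for *Notch1*, and *Cacnb3*, *Xylt2* and *Fbxl19* for *Notch3*. *Kdm6b*, a histone H3 lysine demethylase, was at 57.3, 57.3 and 55.8 FPKM in WT and 24.8, 22.8 and 20.0 FPKM in cKO libraries, the same order of libraries as *Notch1* within cKO. *Ptcra* was most like *Dgcr6*, *Flii* and *Uqcrc1*, in each of which cKO replicate 2 was the lowest library. *Flii*, for example, was at 46.6, 46.0 and 46.5 FPKM in WT and 53.8, 39.8 and 50.1 FPKM in cKO libraries. All these genes were picked for likeness over the same libraries. Their shared order of libraries follows largely from that choice and is not a separate result.

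The rest of the Notch pathway was taken as 65 genes, of which 48 were tested. Of these, 28 were lower and 9 higher in cKO, against 29.8% lower and 35.8% higher among all genes, and their median log2 fold change was -0.37. Scaling to the same FPKM total turned the split to 41 lower and 1 higher, beside 6181 lower and 902 higher of all 10326 genes. With WT counted as 1 sample the median log2 fold change of the 48 genes was again -0.37.

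**Figure D4:**
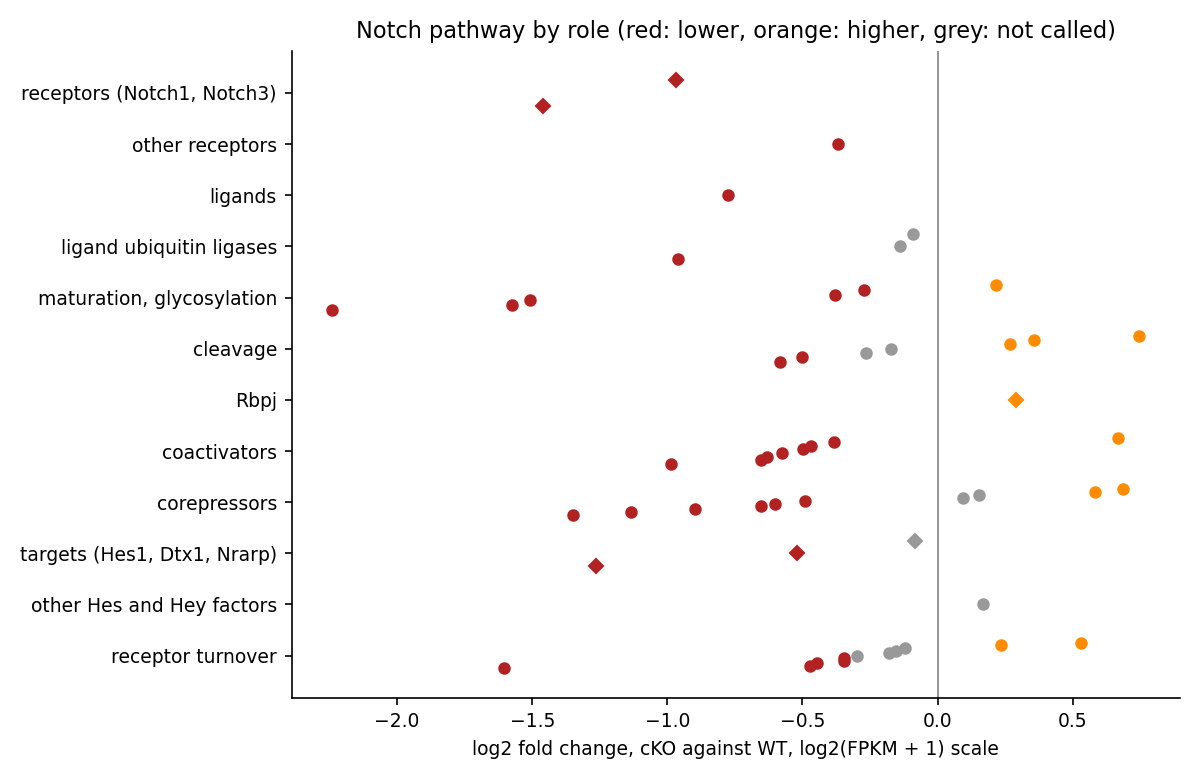
Log2 fold change of cKO against WT of each tested Notch pathway gene, 1 line per role (diamonds for the 6 tested Notch genes of the set, circles for the 48 others, red for lower, orange for higher, grey for not called). Receptor maturation and glycosylation reached furthest to the left with *Lfng* at -2.24, coactivators were lower but for *Snw1*, and cleavage genes stood on both sides.

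Of 6 genes of receptor maturation and glycosylation 5 were lower and 1 higher, against 29.8% and 35.8% of all tested genes. *Lfng* encodes the Lunatic Fringe glycosyltransferase, which makes Notch more responsive to Delta-like ligands. It was at 5.09, 6.16 and 5.03 FPKM in WT and at 0.364, 0.301 and 0.385 FPKM in cKO libraries. That is 93.6% lower in the mean, with a log2 fold change of -2.24 (limma adjusted p = 4.18e-05). Every cKO value was under 1 FPKM, so *Lfng* passed the filter only through its WT libraries, which favours a lower value in cKO. *Furin*, the protease that cleaves new Notch receptors on their way to the surface, fell from 18.0, 16.8 and 15.9 FPKM to 4.62, 5.37 and 5.04 FPKM (-1.58, adjusted p = 7.94e-05), and had -0.92 when GC content and length were corrected for. *Rfng*, another fringe gene, fell by 1.51 on the log2 scale, or by 0.96 under that correction. *Mfng*, the third, fell by 0.38 (adjusted p = 0.0175), with an adjusted p of 0.0511 to 0.0588 when any WT library was left out and 0.0679 under the correction. *Pofut1*, which adds the fucose that fringe proteins extend, had -0.27 (adjusted p = 0.0115), and *Poglut1*, which adds glucose, had 0.22 (adjusted p = 0.0302) and -0.29 at the same FPKM total. The call of *Pofut1* was lost without WT replicate 1 or 2 (adjusted p = 0.0603 and 0.0523), and that of *Poglut1* without any 1 WT library or cKO replicate 3 (adjusted p 0.0558 to 0.135) and with the replicate block (adjusted p = 0.0687). With the correction for GC content and length *Poglut1* was at 0.0012 (adjusted p = 0.990).

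Of 7 cleavage genes tested, 3 were higher and 2 lower, shares near those of all tested genes (35.8% and 29.8%). *Psenen*, a gamma-secretase subunit, rose from 131 to 136 FPKM in WT to 209 to 244 FPKM in cKO (log2 fold change 0.75, limma adjusted p = 0.000384), with 0.27 after quantile normalization and 0.19 at the same FPKM total. With WT as 1 sample it kept 0.75 without a call (adjusted p = 0.0548). *Adam17*, a sheddase, had 0.27 (adjusted p = 0.0119) and turned negative at the same FPKM total (-0.27). It lost its call without WT replicate 1 or 2 (adjusted p = 0.0574 and 0.0562). *Ncstn* and *Aph1a*, 2 further subunits of gamma-secretase, fell by 0.50 and 0.58, *Aph1a* by 0.34 when GC content and length were corrected for. *Adam10*, the main protease of ligand-induced cleavage, had -0.17 (adjusted p = 0.0702) and passed without cKO replicate 2 (-0.22, adjusted p = 0.00832).

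Among the 8 coactivators, 7 were lower and 1 higher, against 29.8% and 35.8% of all tested genes. The Mastermind genes that join RBPJ and Notch on DNA were all lower, *Maml1* by 0.65 (adjusted p = 0.000325), *Maml2* by 0.38 (adjusted p = 0.0157) and *Maml3* by 0.50 (adjusted p = 0.0041) on the log2 scale, the call of *Maml2* being lost without WT replicate 3 (adjusted p = 0.0535). *Maml1*, the highest of the 3, was at 16.3, 17.4 and 16.9 FPKM in WT and 11.0, 10.2 and 9.94 FPKM in cKO libraries. *Maml3* was under 1 FPKM in every cKO library and passed the filter only through WT, which favours a lower value in cKO. The acetyltransferases *Crebbp* (-0.99), *Ep300* (-0.47) and *Kat2b* (-0.57) were lower too, *Kat2b* with an adjusted p of 0.0534 to 0.0808 when any library but cKO replicate 2 was left out. *Snw1*, which also belongs to the spliceosome, rose by 0.67, a call lost at the same FPKM total (0.11).

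Of the 10 tested genes listed as corepressors, 6 were lower and 2 higher, against 29.8% and 35.8% of all tested genes. *Spen* fell from 17.5, 17.9 and 17.4 FPKM to 9.22, 6.37 and 7.07 FPKM (log2 fold change -1.13, limma adjusted p = 0.000375). *Ctbp1* had -0.49, while the histone deacetylases *Hdac1* (0.58) and *Hdac2* (0.69) were higher, both without a call at the same FPKM total and *Hdac1* also after quantile normalization (0.094). *Ncor1* was not called (0.096, adjusted p = 0.383). Of 11 genes of receptor turnover 5 were lower and 2 higher, to be read beside the same shares of all tested genes. *Dtx3*, a relative of *Dtx1*, was at 42.0, 40.3 and 39.2 FPKM in WT and 8.47, 23.8 and 9.85 FPKM in cKO (-1.60, adjusted p = 0.0044), a fall that was smallest in cKO replicate 2.

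Ligands were nearly absent, as 6 of 7 stayed below the filter and *Dll4*, the thymic ligand made by epithelium, reached at most 0.0883 FPKM. *Jag2* was at 2.07, 2.71 and 2.14 FPKM in WT and 0.816, 1.29 and 0.704 FPKM in cKO libraries (log2 fold change -0.78, limma adjusted p = 0.00238). It had -0.47 when GC content and length were corrected for, -1.25 with a pseudocount of 0.1, and no call with WT as 1 sample (adjusted p = 0.0626). *Notch2* was lower as well, at 3.92, 3.91 and 3.69 FPKM against 2.44, 3.20 and 2.64 FPKM (-0.37, adjusted p = 0.0106), but it turned to 0.25 when GC content and length were corrected for. *Notch4* was below the filter. *Hes6*, a Hes relative, was the highest of that family at 66.0 to 70.7 FPKM in WT and 72.5 to 80.3 FPKM in cKO and did not pass the test (0.17, adjusted p = 0.0696), except without cKO replicate 2 (0.22, adjusted p = 0.00815).

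All 6 genes listed as depending on Notch in early thymocytes were lower. *Tcf7*, which encodes the T lineage factor TCF-1, fell from 1434 to 1449 FPKM in WT to 952 to 997 FPKM in cKO (log2 fold change -0.56, limma adjusted p = 0.00234), with -0.29 corrected for GC content and length and -1.29 after quantile normalization. *Bcl11b* (-0.57), *Gata3* (-0.41), *Myc* (-0.61), *Igf1r* (-0.89) and *Il2ra* (-0.45), the alpha chain of the IL-2 receptor that marks DN cells, went the same way. Under the same correction *Myc* had -0.31 and *Bcl11b* 0.0029, and *Gata3* lost its call when any library but cKO replicate 2 was left out (adjusted p 0.0687 to 0.106). With 29.8% of all genes called lower, and with *Il2ra* also among the DN markers, these 6 are given as values only.

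Around *Ptcra*, the 15 genes of the pre-TCR complex, its signalling and beta selection were all tested. Of these, 8 were higher and 2 lower, against 35.8% and 29.8% of all tested genes. The recombination genes *Rag1*, *Rag2* and *Dntt* were among the higher ones, *Dntt* with 1182, 1181 and 1139 FPKM in WT and 2437, 1804 and 2428 FPKM in cKO (log2 fold change 0.91, limma adjusted p = 0.00199), and 0.11 without a call after quantile normalization (adjusted p = 0.166). *Fyn*, a kinase of TCR signalling, fell from 51.0, 51.2 and 49.9 FPKM to 22.8, 25.8 and 24.7 FPKM (-1.03, adjusted p = 0.000101). *Cd3e* (-0.17, adjusted p = 0.215), *Lck* (0.27, adjusted p = 0.0715) and *Lat* (-0.074, adjusted p = 0.650) were not called, although *Lck* was without cKO replicate 2 (0.35, adjusted p = 0.00161). Quantile normalization turned this split to 2 higher and 8 lower, and the same FPKM total to 1 higher and 8 lower, so no direction is given for this list.

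Markers of other cells moved with the groups as well, and their part in the results on the Notch genes was not tested. Of all tested genes, 65.5% were called, 35.8% as higher and 29.8% as lower, shares to be read beside each count here. All 8 cycling markers were higher in cKO, summing to 882 to 890 FPKM in WT and 1794 to 2062 FPKM in cKO. Of 5 genes of mature single-positive cells 4 were lower, with *Ccr7* at 15.1 to 16.2 FPKM in WT and 1.16 to 2.50 FPKM in cKO and *S1pr1* at 4.11 to 4.79 FPKM and 0.133 to 0.203 FPKM. The summed level of this list was 112 to 115 FPKM in WT and 98.1 to 120 FPKM in cKO. Of its genes, *S1pr1* passed the filter only through WT. Erythroid genes rose, from a sum of 1.96 to 2.72 FPKM to 12.3 to 26.6 FPKM, of which 2 of 5 were tested. B cell markers summed to 22.8 to 24.2 FPKM in WT and 26.7 to 39.4 FPKM in cKO, nearly all from *Cd79b*, while *Cd79a* was below 1 FPKM in every library. Thymic epithelium, where the ligands are made, had a sum of 5.46 to 6.82 FPKM in WT and 4.21 to 6.91 FPKM in cKO with 0 of 2 tested genes called, and 2 of its 7 markers were at 0 in every library. Myeloid markers (5.30 to 7.75 against 4.70 to 6.27 FPKM) gave 0 calls of 2 tested, and the list of endothelium and stroma (43.5 to 45.5 against 49.7 to 54.8 FPKM) rested on *Pecam1* alone.

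**Figure D5:**
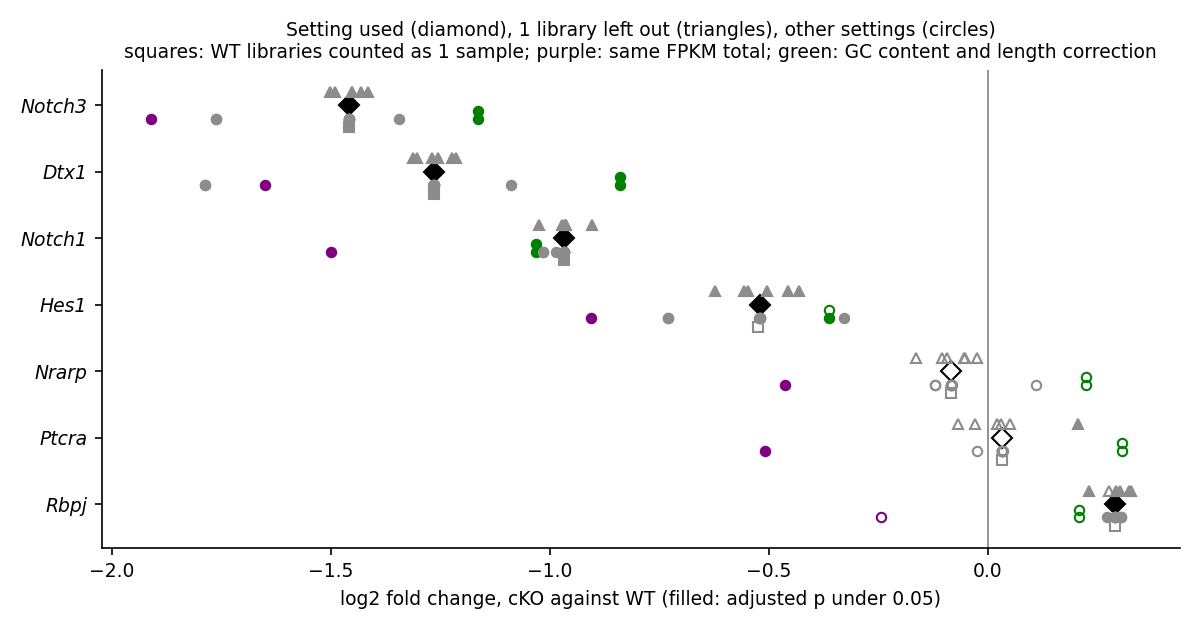
Log2 fold change of the 7 tested genes under the setting used (black diamond), with 1 library left out (triangles), with WT counted as 1 sample (squares) and under other settings (circles, with the same FPKM total in purple and the correction for GC content and length in green), filled where the adjusted p was under 0.05. *Notch3*, *Dtx1* and *Notch1* were lower and called in each of 18 alternatives, and *Ptcra*, *Nrarp* and *Rbpj* had values on both sides of 0.

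Across these alternatives *Notch1* ranged from -1.50 to -0.90, *Notch3* from -1.91 to -1.17 and *Dtx1* from -1.79 to -0.84 on the log2 scale. *Hes1* stayed negative, from -0.91 to -0.33, and kept its call in 16 of the 18. *Rbpj* ranged from -0.24 to 0.33, *Nrarp* from -0.46 to 0.22 and *Ptcra* from -0.51 to 0.31.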

How the data were processed

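Sorted DP thymocytes of WT and NSrp70-cKO mice were analysed in 3 libraries per genotype, grouped by sample title. The authors made poly(A)-enriched directional libraries, sequenced paired ends on an Illumina NovaSeq, trimmed with fastx trimmer and mapped to mm10 with TopHat. The deposited FPKM, 1 per gene symbol and library, came from Cufflinks. Tool versions, annotation and strand setting are not given in the sources used here. The authors tested with DESeq2, which models counts and was not run on FPKM here. FPKM assigns shared reads by model, so *Dtx3* and other members of gene families may be split unequally.

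Symbols were matched to GENCODE M21 (GRCm38), 22110 directly and 641 through synonyms. Depth was estimated from single-fragment steps of 2611 genes, assuming a fragment length of 200, with 72.2% to 79.8% of low values within 0.1 of a whole fragment. It gives counting error only. FPKM values were divided by median-of-ratios size factors (1.00 to 1.01), and log2(FPKM + 1) of genes at 1 FPKM or more in at least 3 libraries was fitted by genotype with limma 3.58.1 (R 4.3.3, eBayes with trend) and adjusted by Benjamini-Hochberg over all 10326 genes. Ratios were compared by exact permutation over libraries, and their p-values were adjusted by Benjamini-Hochberg with scipy 1.17.1. The fit was tested on simulated data.

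The genes and lists were chosen with earlier results of these data known. Named were the 8 genes, *Nsrp1*, the 4 highest genes of each list and those called with a log2 change of at least 1, and the 3 genes most like *Notch1*, *Notch3* and *Ptcra*. *Maml1*, *Maml2*, *Maml3*, *Pofut1*, *Cd3e*, *Cd3d*, *Cd3g*, *Cd247*, *Igf1r*, *Adam17*, *Aph1a* and *Rag2* were added after their values were seen. The alternatives were another pseudocount, filter, scaling or variance model, a replicate block, a correction for GC content and length, WT as 1 sample and each library left out. Fits of *Heyl* with no filter and a pseudocount of 0.1, and the block with the GC correction, were added after seeing the data. Some genes that this rule names are not reported here.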

Additional observations from a re-analysis of the deposited data

How the results depend on the processing

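Counting the WT libraries as 1 sample moved most counts of calls, from 5 to 3 of the 8 genes, from 6766 to 1641 of all genes, from 37 to 11 Notch pathway genes, from 10 to 2 pre-TCR genes and from 25 to 14 markers, and *Nsrp1* kept its fold change (-0.34) without a call (adjusted p = 0.184). That fit has fewer samples. The correction for GC content and length ended the call of *Rbpj* (0.21, adjusted p = 0.0729) and brought *Notch1* (-1.03), *Notch3* (-1.17) and *Dtx1* (-0.84) closer together. Scaling to the same FPKM total moved the median of all genes from 0.039 to -0.45 and the calls to 902 higher and 6181 lower, and reversed *Rbpj* (-0.24), *Ptcra* (-0.51), *Poglut1* (-0.29), *Adam17* (-0.27), *Ncor1* (-0.46), *Nedd4* (-0.021), *Itch* (-0.31), *Hes6* (-0.39), *Lck* (-0.29), *Cd4* (-0.16), *Cd79b* (-0.026) and *Pecam1* (-0.32). Quantile normalization reversed *Rag1* (-0.18), *Lck* (-0.51), *Cd8b1* (-0.021), *Cd8a* (-0.040) and *Cd4* (-0.26), and the correction for GC content and length reversed *Notch2* (0.25) and *Bcl11b* (0.0029). The cause of these reversals was not tested. Leaving out 1 library gave 4 to 6 calls among the 8 genes, 5589 to 7654 among all genes, 30 to 41 in the pathway, 10 to 11 among pre-TCR genes and 20 to 28 among markers. The labels share replicate numbers, but the deviations of same-numbered libraries correlated at only -0.022 to 0.038, and the replicate block gave 5 calls among the 8 genes and 6467 among all genes. The block together with the correction for GC content and length, chosen after seeing the data, left 3 of the 8 genes called. Depth limits *Heyl* and *Hes1* most, with fewer than 100 fragments in every library. It also limits *Dtx1*, at about 56.8 to 81.0 fragments in the cKO libraries, and *Nrarp*, at 60.6 and 74.1 in cKO replicates 1 and 3.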
